A study of Mus musculus with 2 samples.

Results

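The genes Dppa2, Dppa3, Dppa4 and Dppa5a were examined for binding of TOBF1 in mouse embryonic stem (ES) cells. They are 4 of the developmental pluripotency-associated genes, a name given to genes that are active in ES cells and the early embryo and silent in most adult tissues, and which does not mark a single protein family. A TOBF1 peak was assigned to a gene when its midpoint fell inside the RefSeq span of the gene on the mm10 build or no more than 50 kb away, and a peak shared by the neighbours Dppa2 and Dppa4 was counted once. By this rule 11 of the 12181 peaks in the deposited list belonged to the 4 genes.

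The cells were of the R1/E line, kept undifferentiated with LIF in medium with serum, and carried TOBF1 (A830080D01Rik, RefSeq symbol Bclaf3) as a tagged copy on a bacterial artificial chromosome. Chromatin was crosslinked with formaldehyde and DSG, and 1 library was made with an anti-GFP antibody. The 1 input library came from cells with the same construct without antibody, and no file of it was used here. Both groups therefore carry the tagged extra copy of the gene, and whether the cells are 1 clone or a pool is not stated in the labels. With 1 library per group no value has a replicate error, and no difference between genes or peaks was tested. Precipitation from untagged cells and expression values were not used here, so the labelled cell type was not checked against RNA. Unspecific enrichment of transcribed chromatin cannot be told apart from binding of TOBF1.

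Dppa2 and Dppa4 encode SAP-domain proteins that bind DNA together, are known to keep the promoters of developmental genes free of DNA methylation, and lie upstream of Dux and the Zscan4 genes of the cleavage-stage embryo. Dppa3, also called Stella or PGC7, encodes a maternal protein that protects methylated DNA in the zygote, restrains Uhrf1 and marks primordial germ cells. Dppa5a, also called Esg1, encodes an RNA-binding protein of the KH-domain type.

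All 4 genes had a TOBF1 peak within 50 kb, where 42.0% of 21887 protein-coding genes had one (exact 95% interval 41.3 to 42.7%). This interval holds counting error only and treats genes as independent, although neighbouring genes can share peaks. All 4 also had a peak in the gene or within 10 kb, against 21.6% of protein-coding genes, and within 5 kb of a gene end, against 8.97%. A peak within 1 kb of an end was found at 2 of them, Dppa2 and Dppa4, against 2.67%. These are short genes, and longer genes have wider windows. Among the 8246 protein-coding genes no longer than Dppa4, the longest of the 4 at 10558 bp, the shares were 31.4% within 50 kb, 10.6% within 10 kb and 3.0% within 1 kb of an end. Because Dppa2 and Dppa4 shared all of their peaks within 50 kb, the 4 genes stand for 3 separate loci.

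**Figure D1:**
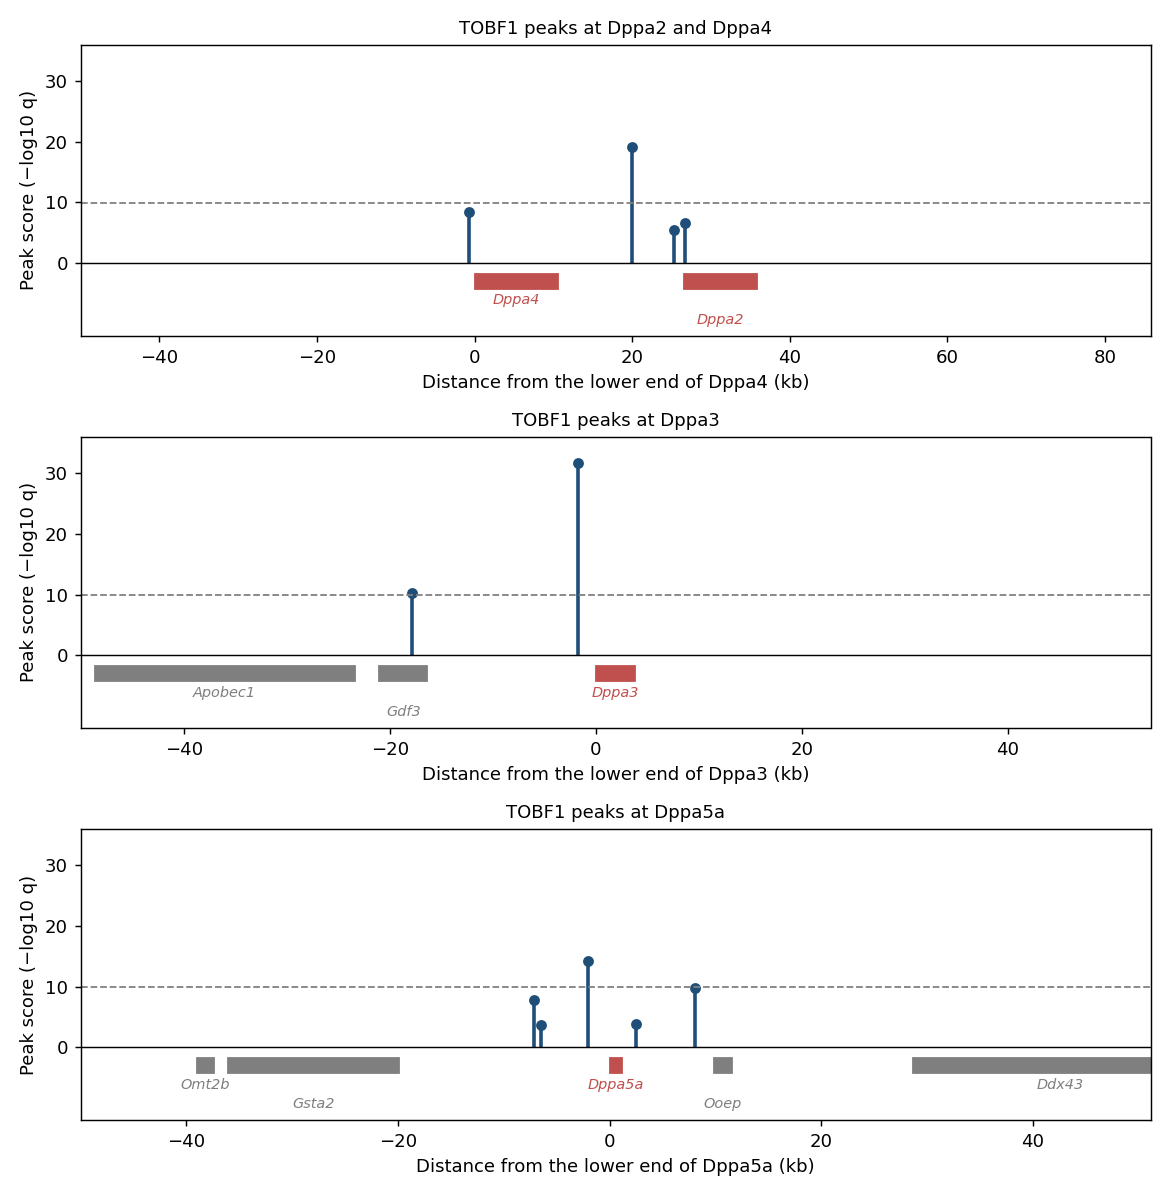
Peaks of TOBF1 in the windows of Dppa2 with Dppa4 (top), Dppa3 (middle) and Dppa5a (bottom). Each stem is 1 peak at its midpoint, in kb from the lower end of the named gene, and its height is the deposited score, read as −log10 of the q-value; red bars are the 4 genes, grey bars other protein-coding genes, and the dashed line is the median score of the whole list (9.97). Of the 11 peaks, 10 lie inside one of the 4 genes or within 10 kb, and the highest stem, 31.7, stands 1.73 kb below Dppa3.

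Per length, the 3 windows together (340.8 kb) held 3.23 peaks per 100 kb, compared with 0.444 per 100 kb over the chromosomes as a whole. These are unlike regions, since the windows surround genes chosen with earlier results known and the chromosomes include stretches far from genes. The density over the windows of all protein-coding genes was not counted. A window of 10 kb already took in 10 of the 11 peaks, and 6 lay within 5 kb of an end of one of the 4 genes. Over the list, 29.4% of peaks lay within 10 kb of an end of a protein-coding gene. That share is an unlike measure, since the rule took peaks near the 4 genes. The share within 10 kb among peaks in the 50 kb windows of all protein-coding genes was not counted. Every locus was bordered by long stretches without a peak. Below and above the peaks these stretches measured 128.2 and 63.2 kb at Dppa2 and Dppa4, 116.6 and 77.7 kb at Dppa3, and 168.5 and 99.8 kb at Dppa5a. Such stretches are common in the list, where the median gap between neighbouring peaks was 93.5 kb and 58.4% of gaps were over 60 kb.

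The deposited score, read as −log10 of a q-value, is the peak caller's own value and was used only to compare peaks within the list. It ran from 3.68 to 31.7 over the 11 peaks, with a median of 8.41, and from 1.3 to 216.1 over the whole list, with a median of 9.97. Of the 11 peaks, 4 lay at or above the list median and 2 were above its upper quartile of 19.0. The strongest peak was at Dppa3 (31.7), followed by the strongest at Dppa2 and Dppa4 (19.1) and at Dppa5a (14.2). The order of peak numbers was the reverse, with 2 at Dppa3, 4 at Dppa2 and Dppa4 and 5 at Dppa5a. Whether neighbours in either order differ beyond the spread between replicates was not tested, because there is only 1 library.

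Dppa4 (chromosome 16, 48283735 to 48294292) and Dppa2 (48310274 to 48319513) lie next to each other, with 15.98 kb between them and no other annotated gene within 50 kb of the pair. Their 4 peaks spanned 27.6 kb. The first lay 734 bp below the lower end of Dppa4 (48282920 to 48283083) with a score of 8.41. The second and strongest lay between both genes (48303608 to 48303867, score 19.1), 9.45 kb above Dppa4 and 6.54 kb below Dppa2. The third lay between the genes as well, 1.24 kb below Dppa2 (48308967 to 48309111, score 5.42). The fourth was inside Dppa2, 170 bp from its lower end (48310352 to 48310535, score 6.63), and was the only one of the 11 peaks inside any of the 4 genes.

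Each gene of the pair thus had a weak peak at its lower end, below the list median, and the strong peak of the locus stood apart from both. The strong peak ranked 3018 in the list, so that 75.1% of all peaks scored lower. The other peaks of the pair outscored 42.3%, 29.3% and 20.9% of the list. No peak lay within 1 kb of the upper end of either gene. Of all protein-coding genes, 4.65% had 4 or more peaks within 50 kb, and of the genes no longer than Dppa4, 3.20%.

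Dppa3 (chromosome 6, 122626424 to 122630271) had 2 peaks. The stronger, 1.73 kb below the lower end of the gene (122624582 to 122624813), had a score of 31.7 and outscored 87.8% of the list. The other, with a score of 10.3, lay 17.8 kb below the gene (122608511 to 122608695) and inside Gdf3, which encodes a ligand of the TGF-beta family made by ES cells. Both scores were above the list median, and no peak lay inside Dppa3 or within 50 kb above it. Of all protein-coding genes, 17.8% had 2 or more peaks within 50 kb, so the number of peaks at Dppa3 was an ordinary one. The height of its strongest peak was less so, since 8.15% of all protein-coding genes, and 5.04% of those no longer than Dppa4, had a score as high within 50 kb. Genes without any peak are included in both shares. Among the 9191 genes with a peak within 50 kb, the score of 31.7 lay between the 80th percentile (31.0) and the 81st (32.1).

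Apobec1, which encodes a cytidine deaminase that edits RNA, also reaches into the window of Dppa3 and had no peak inside it or within 1 kb of its ends. The next peak above Dppa3 fell outside the window, 72.4 kb away, with a score of 16.5. Its nearest gene was Nanog, which encodes a central pluripotency factor, at 4.85 kb. Gdf3, Dppa3 and Nanog lie near each other on this chromosome. The peaks named here scored 10.3 inside Gdf3, 31.7 below Dppa3 and 16.5 nearest to Nanog, beside a list median of 9.97. The share of all protein-coding genes with such a peak as near was not counted.

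Dppa5a (chromosome 9, 78367052 to 78368199) is the shortest of the genes, at 1148 bp, and had the most peaks. Below the gene lay peaks at 7.18 kb (78359689 to 78360046, score 7.81), at 6.44 kb (78360545 to 78360680, score 3.68) and at 2.08 kb (78364815 to 78365130, score 14.2). Above it lay peaks at 1.36 kb (78369473 to 78369652, score 3.92) and at 6.95 kb (78375029 to 78375270, score 9.83). Only the peak 2.08 kb below the gene scored above the list median, and none lay inside the gene or within 1 kb of an end.

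These 5 peaks spanned 15.6 kb, with gaps of 0.498 to 5.38 kb between them, and all of them fell between the neighbouring genes Gsta2, which encodes a glutathione S-transferase, and Ooep, which encodes a KH-domain protein of the oocyte's subcortical maternal complex. The peak 6.95 kb above Dppa5a was closer to Ooep, at 1.75 kb, so 4 of the 5 had Dppa5a as their nearest protein-coding gene. RefSeq places Ooep on the minus strand, and its promoter window is at the far end of the gene from that peak. Omt2b and the helicase gene Ddx43, which also reach into the window, had no peak inside. All 5 peaks were within 10 kb of Dppa5a, and 1.22% of all protein-coding genes had 5 or more peaks that near, or 0.74% of the genes no longer than Dppa4. Within 50 kb the share of all protein-coding genes with 5 or more was 2.77%.

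When peaks at gaps of up to 10 kb were joined into runs, the Dppa5a peaks made a run of 5. Of the 9606 runs on the chromosomes, 92 (0.958%) were as large. The run at Dppa5a counts apart the peaks that lie 0.498 kb from each other. These are shares of runs, and the share of peaks that lie in runs as large was not counted. The upper 3 peaks of Dppa2 and Dppa4 made a run of 3, reached by 3.53% of runs, and the peak below Dppa4 and both peaks at Dppa3 stood alone. None of the 11 peaks belonged to a region of 6 or more peaks. Of the 12012 peaks on the chromosomes, 772 did, so most peaks of the list lay outside such regions as well.

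**Figure D2:**
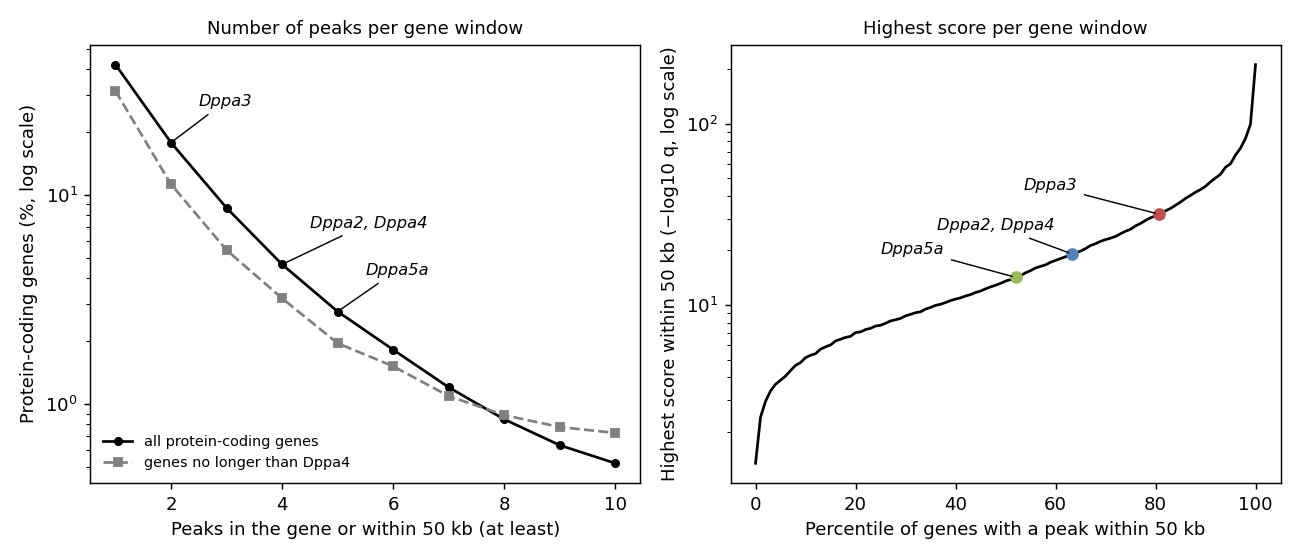
The left panel plots the percentage of protein-coding genes (log scale) with at least the number of peaks on the x axis in the gene or within 50 kb, for all 21887 genes (black) and for the 8246 no longer than Dppa4 (grey). The right panel plots the highest score within 50 kb (log scale) against its percentile among the 9191 genes with a peak there. By number of peaks Dppa5a stands farthest out (2.77%) and Dppa3 least (17.8%), and by highest score the order is the reverse. The lead of Dppa5a in number rests on counting apart the peaks that lie 0.498 kb from each other.

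The strongest peak of every locus was found 1.73 to 6.54 kb outside the nearest of the 4 genes. A peak at or above the list median was present within 50 kb of all 4 genes, against 26.9% of protein-coding genes. A score as high as the strongest of Dppa2 and Dppa4 was found within 50 kb of 15.5% of protein-coding genes, and one as high as that of Dppa5a within 50 kb of 20.2%. Among the 9191 genes with any peak in the window, the median highest score was 13.6, close to the 14.2 of Dppa5a.

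In width the 11 peaks ran from 136 to 358 bp, with a median of 185 bp, where the list median was 216 bp (quartiles 170 and 286 bp). Wider peaks had higher scores, with a Spearman's rho of 0.57 across all peaks of the list and 0.66 across the 11, given as a description since the peaks share 1 library. Scores at a given width are given by locus as a description, and no difference was tested. The peak 1.73 kb below Dppa3 was 232 bp wide and outscored 91.3% of the 2464 peaks within 10% of its width, whose median score was 12.6. The widest peak at Dppa5a, 358 bp, had a score of 7.81, while peaks of like width had a median of 23.0. All 5 peaks at Dppa5a scored below the median of peaks of like width, both at Dppa3 scored above it, and at Dppa2 and Dppa4 2 of 4 did. The loci overlapped, since the weaker peak at Dppa3 outscored 62.6% of peaks of like width and the peak below Dppa4 64.6%.

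**Figure D3:**
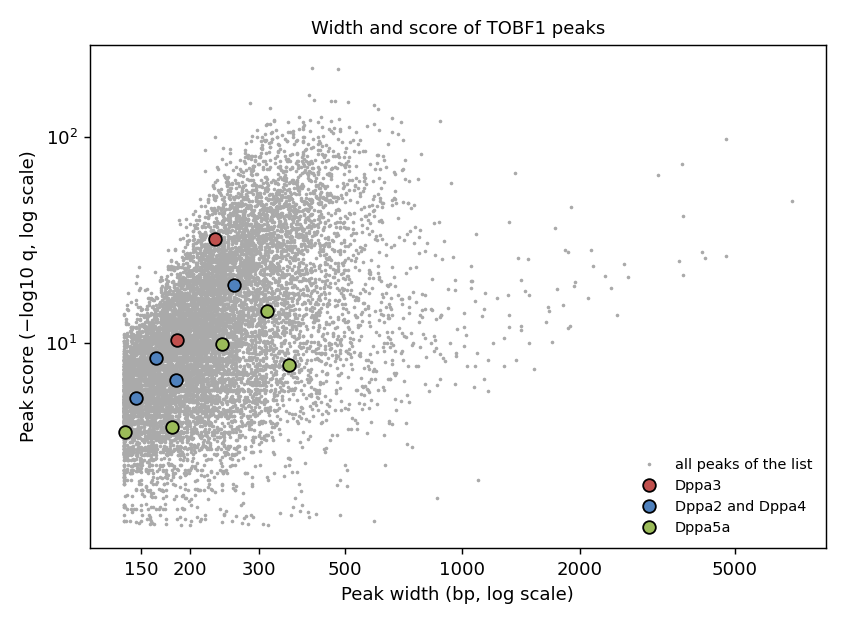
Width in bp and score of each TOBF1 peak, both on log scales, with all 12181 peaks in grey and the 11 peaks at Dppa3 (red), Dppa2 and Dppa4 (blue) and Dppa5a (green) on top. The green points all lie below the median score of peaks of like width and the red points above it. The Dppa3 peak of score 31.7 was above 91.3% of peaks of like width. The other red point was above 62.6%, and the blue point below Dppa4 was above 64.6%.

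Of the 11 peaks, 9 had one of the 4 genes as the nearest protein-coding gene, and the remaining 2 had Gdf3 and Ooep. Beside the peak inside Dppa2 and the one inside Gdf3, the other 9 lay outside all protein-coding genes. The share of the whole list outside protein-coding genes was not counted, so these 9 cannot be called many or few. The median distance of the 11 peaks to the nearest end of any protein-coding gene was 1.73 kb, compared with 28.4 kb over the list. This closeness follows in part from the rule, which took peaks near the 4 genes. At the outer limit of the window, the farthest peak inside it was 17.8 kb from Dppa3, or 27.3 kb from Dppa2 if the peak below Dppa4 is measured from there. The nearest one outside was 54.3 kb above Dppa2, with a score of 6.0.

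Other genes with the same name stem, looked up after these values were seen, had no peak within 50 kb. Such a lack is common, since 42.0% of protein-coding genes and 38.4% of genes of every type had a peak there. The nearest peak was 178.7 kb from the protein-coding gene Dppa1 (chromosome 11, 46607010 to 46629274). It was 54.5 and 80.9 kb from the pseudogenes Dppa5b and Dppa5c, which lie on chromosome 9 below Dppa5a, and 819.6 kb from the pseudogene Dppa3-ps on chromosome X. The sources used here do not say how reads that match both a gene and its pseudogene copies were handled. The peaks at Dppa3 and Dppa5a lay outside the gene spans, and whether the sequence there is also shared with the pseudogene copies was not tested.

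Genes linked to the 4 by function were counted in 6 lists, whose 79 entries all matched a protein-coding gene (Dub1 as Usp17la). Dnmt3l and Khdc3 are each on 2 lists. Over all protein-coding genes the shares with a peak were 42.0% within 50 kb, 21.6% within 10 kb and 2.67% within 1 kb of an end, and over the genes no longer than Dppa4 they were 31.4%, 10.6% and 3.0%. The ES cell list, which holds other transcripts first described as specific to ES cells together with naive pluripotency factors, had a peak within 50 kb at 18 of 20 genes, within 10 kb at 16 and within 1 kb of an end at 6 (90%, 80% and 30%, against 42.0%, 21.6% and 2.67% of all protein-coding genes). The median number of peaks within 50 kb was 2, against 0 over all protein-coding genes. Klf2 (80.2), Tfcp2l1 (58.6), Sox15 (35.8) and Klf5 (33.5) had the highest scores within 50 kb, all above the 31.7 of Dppa3. Both peaks counted at Gdf3 are those counted at Dppa3. Dppa1 and Tcl1 were the 2 genes without a peak.

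Genes of DNA methylation and imprint protection, the processes in which Dppa3 acts, had a peak within 50 kb at 11 of 12, within 10 kb at 9 and within 1 kb of an end at 2 (91.7%, 75% and 16.7%, against the same 42.0%, 21.6% and 2.67%). The highest scores were at the DNA demethylase genes Tet2 (56.5) and Tet1 (21.6), at Zfp57 (32.7), which encodes a zinc finger protein that guards imprints, and at its corepressor gene Trim28 (25.5). Uhrf1, whose product Dppa3 restrains, was the 1 gene without a peak. These genes are longer than the Dppa genes, with a median of 45502 bp, and longer genes have wider windows.

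Genes known to be activated by Dppa2 and Dppa4, and other genes of the cleavage-stage embryo, had a peak within 50 kb at 3 of 12, within 10 kb at 1 and within 1 kb of an end at none. With a median length of 4455 bp they are short, and their shares of 25%, 8.33% and 0% lay near the 31.4%, 10.6% and 3.0% of genes no longer than Dppa4. The 3 were Usp17lc (28.1), Zscan5b (18.3) and Tdpoz4 (7.88), and Zscan4c, Zscan4d and Zscan4f had none. Several of these genes lie in arrays of near-identical copies, where the placing of reads is uncertain. Of the maternal subcortical complex and KH-domain relatives of Dppa5a, 5 of 10 had a peak within 50 kb and 2 within 10 kb (50% and 20%). All protein-coding genes gave 42.0% and 21.6%. This list is short as well, with a median length of 7766.5 bp, and genes no longer than Dppa4 gave 31.4% and 10.6%. Khdc3 (21.5), Ooep (14.2), Zbed3 (11.5) and Nlrp5 (6.93) had the highest scores, and Ooep counts in both windows through peaks counted at Dppa5a. Khdc1a, Khdc1b and Khdc1c had none.

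Germ cell genes had a peak within 50 kb at 6 of 10 (60%, against 42.0% of all protein-coding genes) and within 10 kb at 2, with the highest scores at Ifitm3 (58.9), Tfap2c (51.5), Dnd1 (18.0) and Prdm14 (12.5). Genes that mark other lineages had one within 50 kb at 4 of 15 (26.7%) and within 10 kb at 2. The 4 were Pax6 (15.7), Neurod1 (13.2), Foxa2 (12.4) and Sox1 (2.4). Neither of these lists nor the KH-domain list had a gene with a peak within 1 kb of an end. Within 10 kb, the share was 100% for the 4 Dppa genes, 80.0% for the ES cell list and 75% for the methylation list. For the remaining lists it was 8.33% to 20%, where all protein-coding genes gave 21.6% and genes no longer than Dppa4 10.6%. Of these lists, the cleavage-stage, KH-domain and other-lineage ones are of short genes, with median lengths of 4455, 7766.5 and 7947 bp. No test was made of these differences, and the lists differ in gene length.

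**Figure D4:**
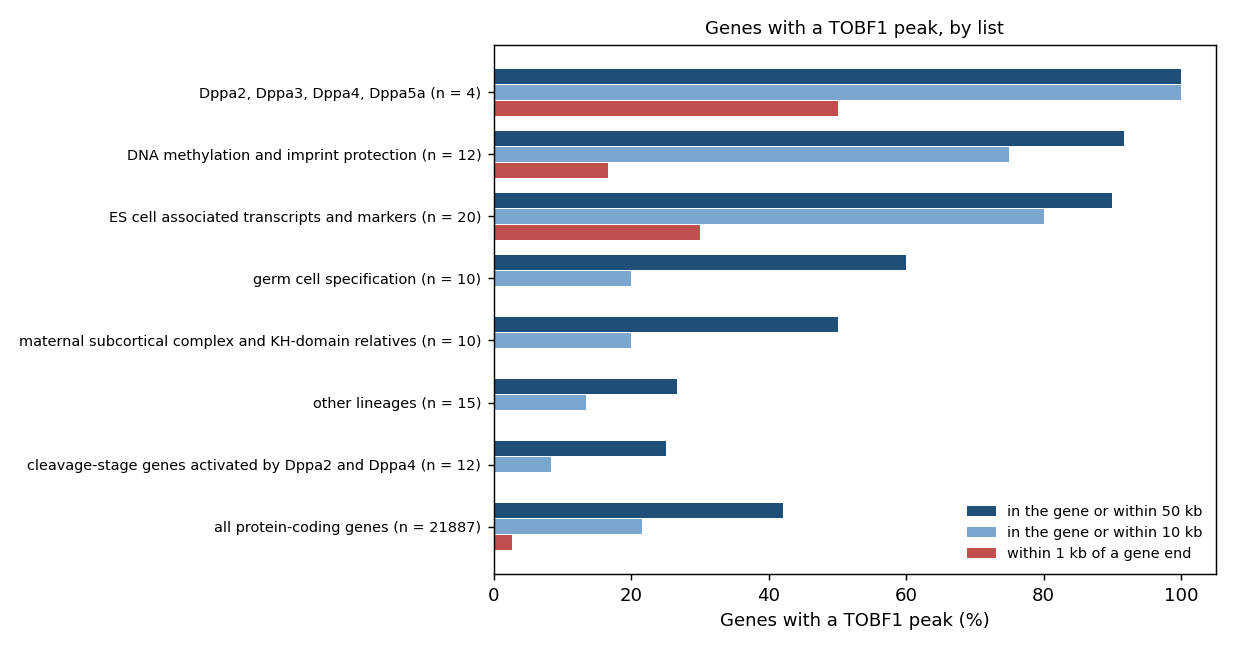
Percentage of genes with a TOBF1 peak in the gene or within 50 kb (dark blue), within 10 kb (light blue) and within 1 kb of a gene end (red), for the 4 Dppa genes, 6 lists of linked genes and all protein-coding genes, with the number of genes in brackets. The Dppa genes, the ES cell list and the methylation list lie above all protein-coding genes in every window, and the cleavage-stage and other-lineage lists lie below in every window. Genes no longer than Dppa4, not plotted, gave 31.4%, 10.6% and 3.0%. The other-lineage list, at 13.3% within 10 kb, lies above that 10.6%.

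The genes elsewhere in the genome with the same number of peaks within 50 kb and the closest highest score were found over this 1 library, as a description. For Dppa2 and Dppa4, among 410 genes with 4 peaks, they were Trappc8 (19.1), Myo18a (19.3) and Gm29808 (18.9). For Dppa3, among 1992 genes with 2 peaks, they were Stk38, Pkdcc and Htr1d, with highest scores of 31.7, 31.7 and 31.6. For Dppa5a, among 203 genes with 5 peaks, they were Cbx3 (14.3), Adarb2 (14.5) and Kank3 (14.5). Adarb2 and Kank3 each had 4 of the 5 peaks within 10 kb, and Cbx3 had 2, where Dppa5a had all 5.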

How the data were processed

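ChIP-Seq of BAC-tagged TOBF1 was handled by the authors with cutadapt, Bowtie2, MACS2 and bedtools on mm10, per the submitters' processing notes, without versions, order or settings. The sources used here do not state whether the input was the control, how repeated sequence was treated or how deep the libraries were. The deposited score per peak was taken to be −log10 of a q-value, since the lowest, 1.3, lies just above −log10 of 0.05.

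Gene spans came from RefSeq GRCm38.p6, whose chromosomes are those of mm10. The table gives no strand or exons, so both gene ends were used, and no exon, intron or untranslated region was assigned. A promoter table held none of the 4 genes, and none of the 11 peaks overlapped a promoter in it, so the planned motif search was not made. Peaks were counted by midpoint for each of the 21887 protein-coding genes on chromosomes 1 to 19, X and Y. Peaks of like width were those within 10% of a peak's width. Interval: exact (Clopper-Pearson, 95%). Genes were named by a rule: the 4 genes, coding genes reaching into their windows, up to 4 per list with the highest scores, and 3 most alike per gene; genes without a peak, and the name-stem relatives, were added after their values were seen. The members and lists were chosen with earlier results of these data known. Counting was tested on simulated data (200 of 200 genes recovered). The software was Python 3.11.15 with pandas 2.3.3, NumPy 2.4.6, matplotlib 3.10.9 and SciPy 1.17.1.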

Additional observations from a re-analysis of the deposited data

How the results depend on the processing

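Windows of 10, 20 and 100 kb gave 10, 11 and 14 peaks in place of 11, any overlap 11, merging peaks within 1 kb 10, and counting only peaks nearest to one of the 4 genes (added after the data were seen) 9. The merged peaks were those 0.498 kb apart below Dppa5a, so with merging Dppa5a no longer had more peaks than Dppa2 and Dppa4. Without the peaks that scored below the list median, 4 of the 11 remained, and none of the 4 genes had one within 1 kb of an end (0 of 4). Within 500 bp of an end 1 gene had a peak and within 5 kb all 4, where 2 had one within 1 kb. The share of protein-coding genes was not counted at 500 bp, nor at 1 kb with the lower-scoring peaks left out. The counts of 1 and 0 of the 4 genes at these settings therefore cannot be called many or few. The highest score of each gene was the same within 10, 50 and 100 kb. The share of protein-coding genes with a peak, 42.0% within 50 kb, was 21.6% within 10 kb, 59% within 100 kb, 26.9% without the lower-scoring peaks and 38.4% over genes of every type. It was 31.4% for genes no longer than Dppa4 (added later), 41.6% without runs of at least 6 peaks, and 41.9% without genes up to 100 kb from the 4 windows (added later). No paired analysis was possible because there is 1 library per group. Depth is unknown, so whether weak peaks such as those within 1 kb of Dppa2 and Dppa4 would be called again was not tested.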
